A study of Mus musculus with 4 samples.

Results

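SNF2 enzymes are motor proteins that spend ATP to slide, evict or exchange nucleosomes, and most of them work inside large complexes whose other subunits choose the target. The 40 genes described here encode such motors and the subunits around them: the SWI/SNF (BAF) complexes, the ISWI, CHD and INO80/SWR1 families, and SNF2 enzymes that act alone or in DNA repair. They were taken by name from a list that leaves out Hells, and all 40 were present among the 17194 genes of the deposited count table. Hells is itself an SNF2 enzyme, known for its part in DNA methylation, so the comparison asks how the rest of the remodeler family was expressed when this member was lowered.

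The cells were primary mouse bone marrow-derived macrophages given RANKL, the cytokine that drives osteoclast formation, for 2 days. Polyadenylated RNA was sequenced from 2 libraries of cells carrying a control siRNA (siControl) and 2 of cells carrying an siRNA against Hells (siHells), and both groups had RANKL. Mouse strain, age and sex and the siRNA sequences were not stated in the sources used here. Nor do the labels tie the 2 libraries of a group to different cultures or mice. Every p-value below thus reflects library-to-library spread alone, which may be technical. In edgeR's test the spread of each gene, with 2 residual degrees of freedom, is moderated by spread borrowed from all genes. Small p-values there rest in part on that borrowing.

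Library totals lay between 48873635 and 55642819 counts. Hells itself was 29.7 ± 0.459 CPM (TMM-normalised read counts scaled to library size; mean ± SD, n = 2) in siControl and 14.9 ± 0.390 in siHells, a log2 fold change of -0.99, so the siRNA lowered its mRNA without removing it. Markers are counted here as rising or falling at a Benjamini-Hochberg adjusted p under 0.05 by edgeR's quasi-likelihood test. By this rule 29.0% of all genes tested rose and 29.5% fell. Of 9 osteoclast markers, 9 fell, and their summed level went from 8588 and 8653 CPM in siControl to 1416 and 1376 CPM in siHells. Of 8 macrophage markers, 6 rose and 2 fell (16069 and 16219 CPM against 24307 and 23647 CPM). Of 8 stromal markers, 5 rose and 2 fell (1004 and 1027 CPM against 1791 and 1761 CPM). Of 6 neutrophil markers, 4 fell (345 and 346 CPM against 275 and 263 CPM). In the table, Nkg7 was the lymphoid marker present, at 0.149 to 0.560 CPM, and the erythroid and mast cell markers present summed to 1.14 to 3.30 CPM. The part of these shifts in the remodeler changes was not tested, and in bulk RNA fewer cells of a type and less RNA per cell cannot be told apart.

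Most of the remodeler genes passed the test, with small changes. Of the 40 genes, 18 were higher in siHells (45.0%, where 29.0% of the 15651 genes tested were higher) and 9 were lower (22.5%, where 29.5% of all genes were lower), by edgeR's quasi-likelihood test at a Benjamini-Hochberg adjusted p under 0.05. Together 27 of 40 passed (67.5%), beside 58.5% of all genes. A change of at least 1.5-fold that also passed was found for 4 of the 40, Smarcd3, Baz2a, Chd9 and Ercc6, where 24.9% of all genes did so. The median fold in either direction was 1.13 for the 40 genes and 1.27 for all genes, and the median log2 fold change was 0.07 against 0.00 for all genes. The 40 genes were more abundant, with a median level of 86.8 CPM against 17.1 CPM for all genes tested. None of the comparisons with all genes in this paragraph was matched for level. In 35 of 40 the siControl and siHells libraries did not overlap (87.5%, with 78.5% over all genes). As a sum, the 40 genes took 0.392% of counts in each siControl library and 0.403% and 0.401% in the siHells libraries.

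**Figure D1:**
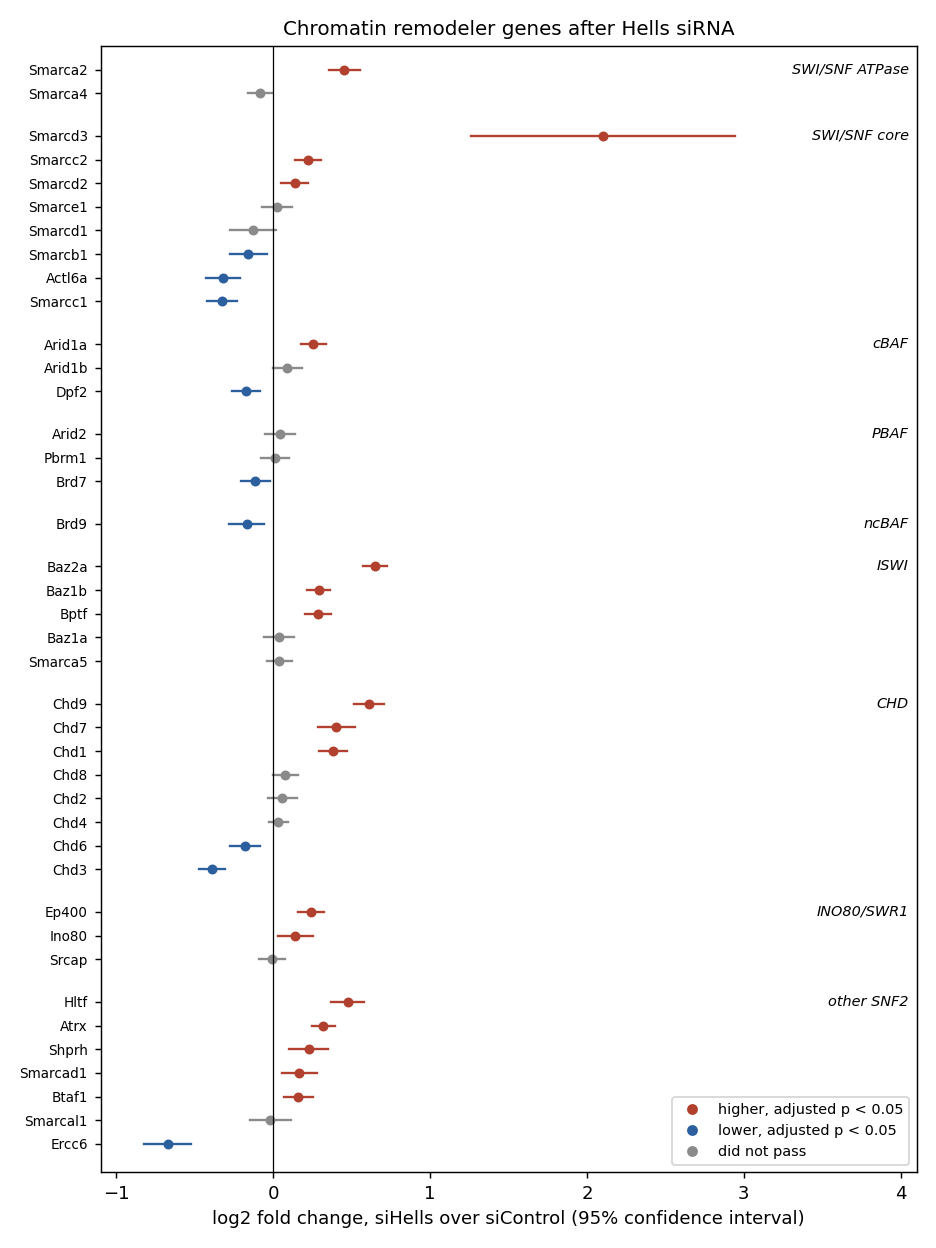
Log2 fold change of each of the 40 genes (siHells over siControl, 2 libraries a group) with its 95% confidence interval, ordered within complexes. Red points passed as higher, blue points as lower and grey points did not pass; most lie within 0.5 of 0, with Smarcd3 far to the right and with the widest interval.

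The split between directions depended on scaling and on gene length. With DESeq2's Wald test in place of edgeR, 17 of the 40 genes were higher and 7 lower, without Smarcb1, Brd7 and Ino80 (70.8% of calls higher, beside 50.6% over all genes). With each library scaled to its total alone, 14 of the 40 genes were higher and 11 lower, so 56% of calls were higher in place of 66.7%; over all genes this share went from 49.6% to 40.7%. With the trend of fold change on exon length removed, 14 were higher and 12 lower, so 53.8% of calls were higher, while over all genes the share was 48.5%. These genes are long: their median exon length was 8784 bases against 4100 for all genes with a length, and 32 of the 40 lay in the longest quartile, whose median log2 fold change was 0.09, while that of the shortest quartile was -0.17. Within the 40, the higher genes had a median exon length of 12399 bases, the lower ones 7832 and those that did not pass 8019. Across the 40 genes, which share the same 4 libraries, log2 fold change and log2 exon length had a Spearman rho of 0.31 and a Pearson r of 0.06. Both values include Smarcd3. Over all genes with a length rho was 0.16 and r 0.11.

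**Figure D2:**
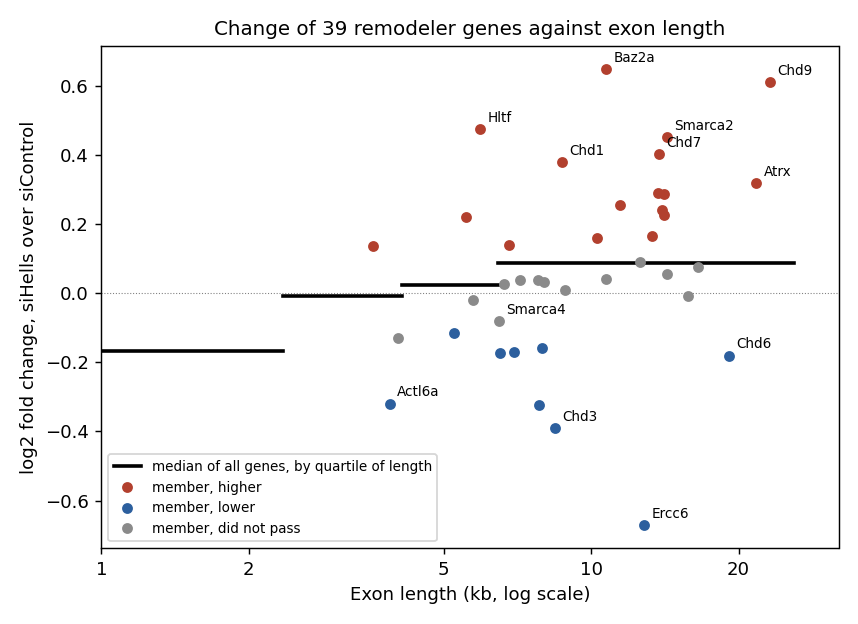
Log2 fold change (siHells over siControl) against exon length in kilobases, on a log axis, for 39 of the genes; Smarcd3, which lies beyond the axis, is left out. Black lines give the median of all genes in each quartile of length and climb from -0.17 to 0.09, and the genes that passed as higher (red) lie mostly to the right of those that passed as lower (blue).

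SWI/SNF complexes carry 1 of 2 interchangeable motors, Smarca4 (BRG1) and Smarca2 (BRM), which in macrophages open the enhancers and promoters of inducible genes. The 17 SWI/SNF genes split almost evenly, with 5 higher (29.4%), 6 lower (35.3%) and 6 that did not pass. Their median log2 fold change was 0.01. Over all genes 29.0% were higher and 29.5% lower, so the split was near that of all genes. Smarca2 stood at 50.8 and 49.3 CPM in siControl and at 68.5 and 68.5 CPM in siHells. Both siHells libraries were higher, and the log2 fold change was 0.45 (SE 0.046, adjusted p = 5.99e-07 by edgeR's quasi-likelihood test). With the length trend removed Smarca2 still passed, at a smaller value of 0.30. Smarca4 stood at 173 and 173 CPM in siControl and 167 and 160 CPM in siHells. Its siHells libraries were both lower, yet the log2 fold change of -0.08 (95% confidence interval -0.16 to -0.0046) missed the threshold (adjusted p = 0.0649). It passed when siHells replicate 1 was left out (-0.11), with upper-quartile scaling (-0.11), with library totals (-0.15) and with the length trend removed (-0.13). It did not pass without siHells replicate 2, where the value shrank to -0.045 (adjusted p = 0.324), or with DESeq2 (adjusted p = 0.188).

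The ratio of the motors within each library, a measure that needs no scaling between libraries, was also separate. Per kilobase of exon, Smarca2 made up 11.7% and 11.5% of the pair's counts in siControl and 15.7% and 16.3% in siHells. With the longest transcript as the length, these shares were 24.0% and 23.5% against 30.6% and 31.6%. The log2 ratio of Smarca2 to Smarca4 was 0.53 higher in siHells, with no overlap. Gene length cancels in this difference, so both lengths must give the same value. The ratio was not corrected for the trend of fold change on length. An exact two-sided permutation test of 2 libraries against 2 cannot give less than p = 0.333, which is what this pair gave (0.364 adjusted over the 12 gene pairs compared).

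Smarca4 and Smarca2 promoters are shown here with those of Baz2a and Ercc6, the genes of the list with the largest rise and the largest fall after Smarcd3 is set aside, because Hells is known for its part in methylation at CpG sites. Methylation was not measured in these libraries. Each window holds the 250 bases before a RefSeq start on GRCm38.p6, read 5′ to 3′ on the gene's strand, with every CpG in capitals. All 4 genes lie on the plus strand.
Smarca4, chr9:21615919-21616168, 25 CpGs: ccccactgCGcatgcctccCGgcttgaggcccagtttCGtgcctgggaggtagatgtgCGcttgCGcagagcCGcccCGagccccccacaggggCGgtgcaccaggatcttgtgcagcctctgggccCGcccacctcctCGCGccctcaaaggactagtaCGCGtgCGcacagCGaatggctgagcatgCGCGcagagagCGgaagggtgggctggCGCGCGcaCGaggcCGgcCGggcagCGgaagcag
Smarca2, chr19:26604910-26605159, 28 CpGs: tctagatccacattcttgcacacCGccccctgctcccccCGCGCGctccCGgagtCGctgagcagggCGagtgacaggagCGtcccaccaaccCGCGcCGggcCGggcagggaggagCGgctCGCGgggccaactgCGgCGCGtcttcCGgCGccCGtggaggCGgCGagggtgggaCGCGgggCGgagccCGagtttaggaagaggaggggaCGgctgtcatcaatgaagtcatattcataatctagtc
Baz2a, chr10:128092533-128092782, 20 CpGs: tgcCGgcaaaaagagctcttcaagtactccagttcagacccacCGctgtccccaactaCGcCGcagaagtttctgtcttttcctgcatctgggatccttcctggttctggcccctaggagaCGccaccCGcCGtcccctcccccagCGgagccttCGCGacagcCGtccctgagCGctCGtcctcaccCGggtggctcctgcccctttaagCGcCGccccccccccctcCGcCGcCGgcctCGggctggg
Ercc6, chr14:32513271-32513520, 13 CpGs: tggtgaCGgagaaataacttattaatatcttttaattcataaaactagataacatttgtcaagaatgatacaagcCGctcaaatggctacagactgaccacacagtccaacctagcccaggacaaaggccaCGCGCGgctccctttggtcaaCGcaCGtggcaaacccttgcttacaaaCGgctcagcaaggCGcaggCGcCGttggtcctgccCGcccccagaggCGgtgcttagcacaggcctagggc
The promoter table held 33 of the 40 genes, with 39 starts; Baz1a, Arid2, Chd1, Chd2, Chd3, Chd7 and Smarce1 had no entry. The 39 windows held a median of 21 CpGs (from 1 to 40), beside a median of 6 over 32851 windows of the same length from all RefSeq genes in the table. Those windows came from 27025 genes and were not limited to the 15651 genes tested here. CpG counts and motif shares were thus not compared with expressed genes alone. Windows of the higher genes had a median of 20 and those of the lower genes 21. Motifs were searched on both strands. The Smarca2 window held the ETS motif CCGGAAG, found in 10.3% of the 39 windows and in 6.91% of all windows. Of the 4 windows of the list with this motif, 2 were overlapping windows of Brd9. The Smarca4 window held the NRF1 core GCGCATGC, found in 7.69% and 2.26%. Neither the Baz2a nor the Ercc6 window held these motifs, the CRE TGACGTCA, the E2F motif TTTNGCGC or a CCAAT box.

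The core of SWI/SNF, which scaffolds the motor, split between partners of the same slot. Smarcc1 and Smarcc2, the paired scaffold subunits, went opposite ways. Smarcc1 fell from 94.9 ± 4.30 to 75.7 ± 0.0653 CPM (n = 2 each), a log2 fold change of -0.32 (adjusted p = 1.31e-05). Smarcc2 rose from 151 ± 3.18 to 176 ± 7.75 CPM, a log2 fold change of 0.22 (adjusted p = 1.64e-04), or 0.15 with library totals. The log2 ratio of Smarcc2 to Smarcc1 was 0.54 higher in siHells, about as large as the shift between the motors. Per kilobase of exon Smarcc2 was 69.6% and 68.9% of the pair in siControl and 77.2% and 76.1% in siHells.

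Among the other core subunits, Actl6a, an actin-like protein shared with INO80 and TIP60, fell from 48.3 ± 1.05 to 38.7 ± 0.0192 CPM (log2 fold change -0.32, adjusted p = 7.30e-05). Its exons share 11.6% of their bases with Mrpl47 on the opposite strand, which also fell (-0.68). Smarcb1, the tumour suppressor subunit that holds the nucleosome, fell from 39.8 ± 1.48 to 35.6 ± 0.220 CPM (-0.16, adjusted p = 0.0229). That call was lost without siControl replicate 2 and without siHells replicate 1, where the log2 fold changes were -0.11 and -0.15. Smarce1, the HMG-box subunit, stood at 88.9 and 91.6 CPM in siControl and 95 and 88.6 CPM in siHells, so the groups overlapped (0.03, adjusted p = 0.647).

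Smarcd1, Smarcd2 and Smarcd3 compete for 1 position in the core. Smarcd2, needed for granulocyte maturation, was the most abundant of them in siControl, at 29.0 CPM per kilobase of exon against 6.6 for Smarcd1 and 0.0405 for Smarcd3. It rose from 104 ± 1.12 to 114 ± 4.92 CPM (0.14, adjusted p = 0.0102), a call lost without siControl replicate 2 (0.13), without siHells replicate 1 (0.09) and with library totals (0.06). Smarcd1 stood at 27.9 and 25.2 CPM in siControl and 24.9 and 23.7 CPM in siHells and did not pass (-0.13, adjusted p = 0.125), except with library totals (-0.20). Its exons share 7.13% of their bases with Gm17349 and 5.56% with Gm34939, both on the opposite strand. Smarcd3, the muscle-associated form, was close to the floor of detection, with counts of 14 and 8 in the siControl libraries and of 50 and 48 in the siHells libraries. Both siHells libraries were higher; the summed counts were 4.12 times as high (95% exact interval 2.58 to 6.88, counting error only) and the fitted rise was 4.30-fold (adjusted p = 2.84e-04). In the annotation 48.2% of Smarcd3 exon bases overlap Chpf2 on the opposite strand, whose level was 66.4 CPM in siControl and 92.6 CPM in siHells (0.48). The strand setting of the counting was not stated in the sources used here, so reads of the pair cannot be told apart.

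Of the 7 subunits that define the canonical BAF, PBAF and non-canonical BAF forms, 1 rose, 3 fell and 3 did not pass. The base over all genes was 29.0% higher and 29.5% lower. Of the canonical BAF genes, Arid1a, the DNA-binding subunit often lost in tumours, rose from 132 ± 1.69 to 158 ± 4.07 CPM (0.26, adjusted p = 2.17e-05), a change of 0.14 with the length trend removed. Its alternative Arid1b stood at 75.8 and 72.4 CPM against 77.9 and 80.0 CPM; the siHells libraries were higher without passing (0.09, adjusted p = 0.0904), and passed without siHells replicate 1 (0.11). Dpf2, a reader of acylated histones, fell from 82.5 ± 0.689 to 73.2 ± 0.571 CPM (-0.17, adjusted p = 0.00243). Of the PBAF genes, Arid2 stood at 65.8 and 64.7 CPM against 66.5 and 67.9 CPM (0.04, adjusted p = 0.437). Pbrm1, the multi-bromodomain subunit, stood at 105 and 102 CPM against 102 and 107 CPM, with overlap (0.01, adjusted p = 0.842). The bromodomain subunits Brd7 (PBAF) and Brd9 (the mark of non-canonical BAF) both fell slightly, Brd7 from 110 ± 0.209 to 102 ± 5.62 CPM (-0.11, adjusted p = 0.0332) and Brd9 from 43.8 ± 0.612 to 38.9 ± 0.0188 CPM (-0.17, adjusted p = 0.0115). The call of Brd7 was lost without siControl replicate 1 (-0.12), siControl replicate 2 (-0.11) or siHells replicate 2 (-0.06) and with the GC trend removed (-0.10), while library totals gave -0.19, and that of Brd9 without siControl replicate 2 (-0.15).

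ISWI remodelers space nucleosomes in regular arrays, with Smarca5 (SNF2H) as the motor and a large BAZ or BPTF protein as its partner. Here 3 of the 4 listed partners rose and Smarca5 did not pass, where 29.0% of all genes were higher and 29.5% lower. Of 6 further ISWI-list genes, described below, 1 rose and 2 fell. Smarca5 stood at 117 and 119 CPM in siControl and 123 and 120 CPM in siHells; the libraries did not overlap, yet the log2 fold change of 0.04 did not pass (adjusted p = 0.386). Baz2a, which with Smarca5 forms the NoRC complex that silences ribosomal RNA genes, stood at 123 and 128 CPM in siControl and 196 and 197 CPM in siHells. That was the firmest rise of the list by p, 1.57-fold (log2 fold change 0.65, 95% confidence interval 0.57 to 0.73, adjusted p = 3.94e-10). Baz1b, the partner in WICH, rose from 171 ± 3.42 to 209 ± 1.76 CPM (0.29, adjusted p = 2.65e-06), and Bptf, the histone-reading subunit of NURF, from 99.5 ± 2.64 to 121 ± 1.07 CPM (0.29, adjusted p = 1.29e-05). With the length trend removed both still passed, at 0.15 for Baz1b and 0.14 for Bptf. Baz1a, the partner in ACF, stood at 88.7 and 95.9 CPM against 96.1 and 93.4 CPM, with overlap (0.04, adjusted p = 0.476).

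**Figure D3:**
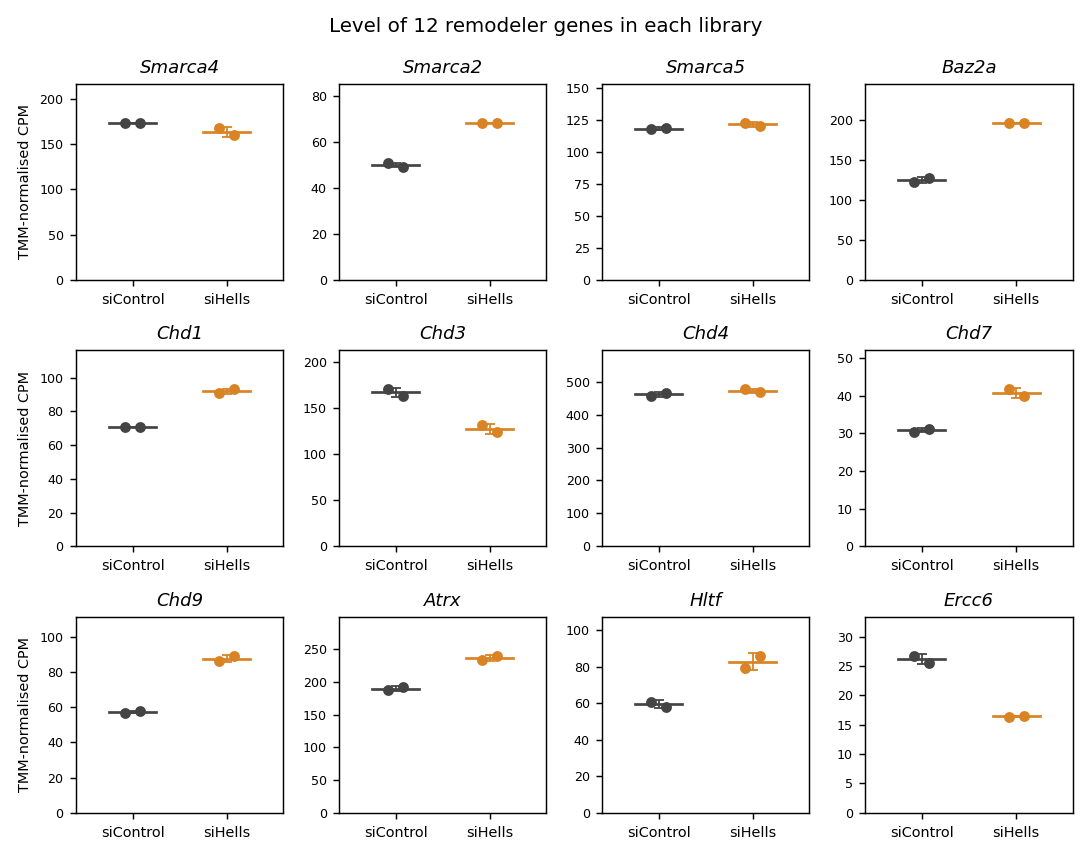
Level of 12 of the genes in every library, in TMM-normalised CPM on axes that start at 0; points are libraries, long lines the mean of 2 and short caps the SD. The libraries of Smarca4, Smarca5 and Chd4 lie close together, while Baz2a, Chd9, Chd1, Chd7, Hltf, Atrx and Smarca2 are higher, and Chd3 and Ercc6 lower, in both siHells libraries.

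The CHD family pairs chromodomains with the SNF2 motor, and its 8 genes gave 3 higher, 2 lower and 3 that did not pass. Chd4, the motor of the NuRD repressor complex, which restrains inflammatory genes in macrophages, had the highest level of the 40 genes, also per kilobase of exon (57.5 ± 0.884 CPM per kilobase in siControl). It stood at 456 and 466 CPM in siControl and 476 and 468 CPM in siHells, apart by little (0.03, adjusted p = 0.333). Chd3, the alternative NuRD motor, was lower in both siHells libraries, at 171 and 164 CPM against 131 and 124 CPM (-0.39, adjusted p = 5.48e-07). Per kilobase Chd3 thus went from 26.2% and 25% of the NuRD motor pair to 20.8% and 20.1%.

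Chd1 and Chd2 bind active promoters and move nucleosomes there during transcription. Chd1 rose from 70.6 ± 0.0833 to 91.9 ± 1.56 CPM (0.38, adjusted p = 1.34e-06). Chd2 stood at 83.9 and 89.3 CPM against 89.8 and 90.3 CPM and did not pass (0.06, adjusted p = 0.273); 18.4% of its exon bases are shared with the transcript 1810026B05Rik on the same strand. Their log2 ratio was 0.32 higher in siHells.

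Chd6 to Chd9 form a further subfamily, and 2 of its members went opposite ways. Chd9 stood at 56.9 and 57.8 CPM in siControl and 86.1 and 89.1 CPM in siHells, a rise of 1.53-fold (0.61, adjusted p = 1.02e-08). Its relative Chd6 went the other way, from 67.6 ± 0.230 to 59.7 ± 0.235 CPM (-0.18, adjusted p = 0.00271). With the length trend removed both still passed, at 0.41 for Chd9 and -0.36 for Chd6. Per kilobase of exon Chd6 was the larger of the pair in siControl, at 59.0% and 58.7%, and the smaller in siHells, at 45.7% and 44.7%, an order that also turned with the longest transcript as the length. Chd7, the enhancer-bound remodeler mutated in CHARGE syndrome, was higher in both siHells libraries, at 30.5 and 31.2 CPM against 41.7 and 39.9 CPM (0.40, adjusted p = 1.74e-05, or 0.26 with the length trend removed). Chd8, known for binding beta-catenin, stood at 126 and 122 CPM against 130 and 131 CPM and did not pass (0.08, adjusted p = 0.0881); it passed as higher with the GC trend removed (0.10) and as lower with the length trend removed (-0.09).

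**Figure D4:**
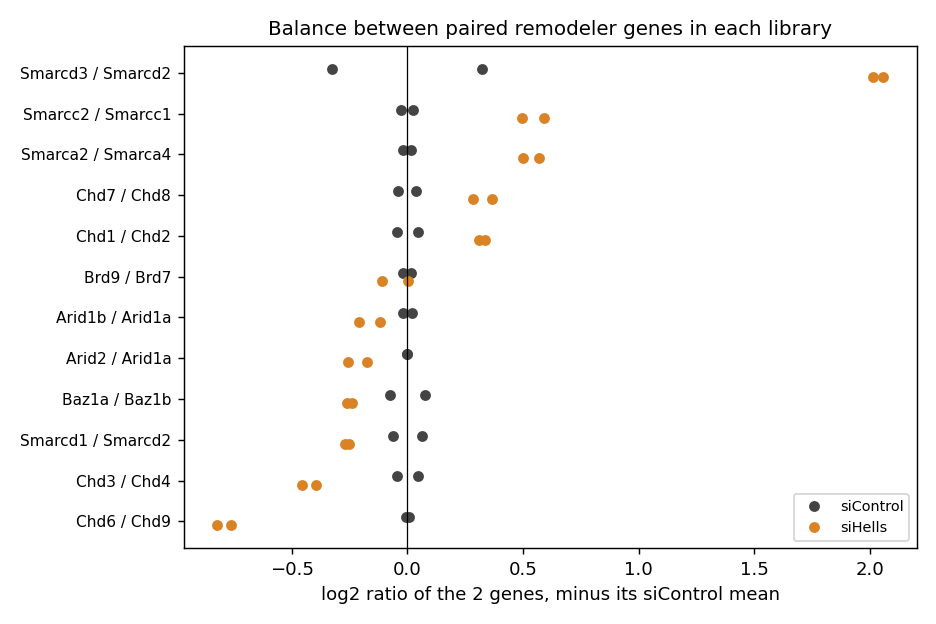
Log2 ratio of the 2 genes of each of the 12 pairs in every library, minus the mean of the siControl libraries, so siControl points (dark) centre on 0 and gene length cancels. In 11 pairs the siHells points (orange) lie apart from siControl, from 2.03 for Smarcd3 over Smarcd2 to -0.79 for Chd6 over Chd9, and in Brd9 over Brd7 they overlap.

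Of the 12 pairs of related genes, 11 had ratios that did not overlap between the groups, each at the smallest p the exact permutation test allows, 0.333 (0.364 adjusted over the 12). Of all single genes 78.5% did not overlap either, and no ratios of other gene pairs were computed, so the count says nothing particular to these pairs. Besides those given above, the changes in log2 ratio were 0.33 for Chd7 to Chd8, -0.25 for Baz1a to Baz1b, -0.26 for Smarcd1 to Smarcd2, -0.21 for Arid2 to Arid1a and -0.16 for Arid1b to Arid1a. The ratio of Brd9 to Brd7 overlapped between the groups (-0.05, exact p = 0.667).

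INO80 and SWR1-type remodelers exchange the histone variant H2A.Z at promoters. Ino80, the motor that slides and edits such nucleosomes, stood at 40.8 and 42.5 CPM in siControl and 46.4 and 45.3 CPM in siHells. The libraries did not overlap and the rise passed (0.14, adjusted p = 0.0310), but it was lost without siControl replicate 1 (0.10), without siHells replicate 1 (0.13), under library totals (0.07), with upper-quartile scaling (0.11) and with the length trend removed (0.09). Ep400, the motor subunit of the TIP60 acetyltransferase complex, rose from 89.0 ± 0.685 to 105 ± 1.23 CPM (0.24, adjusted p = 8.10e-05), with 0.10 (adjusted p = 0.0477) once the length trend was removed. Srcap, which deposits H2A.Z, stood at 143 and 136 CPM against 139 and 139 CPM, with overlap (-0.01, adjusted p = 0.873), and passed as lower with the length trend removed (-0.17). In the annotation 61.7% of its exon bases are also annotated to Gm42715 on the same strand.

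Of the 7 SNF2 enzymes outside these complexes, 5 rose (71.4%, beside 29.0% of all genes) and 1 fell (14.3%, beside 29.5%). Ercc6 (CSB), which restarts transcription at damaged DNA, had the largest fall of the 40 genes. It stood at 26.7 and 25.5 CPM in siControl and at 16.4 and 16.4 CPM in siHells, lower in both (log2 fold change -0.67, 95% confidence interval -0.82 to -0.52, adjusted p = 6.39e-07). Hltf and Shprh, ubiquitin ligases that help cells bypass damage at replication forks, were both higher. Hltf stood at 61.0 and 58.2 CPM in siControl and 79.7 and 86.1 CPM in siHells (0.47, adjusted p = 7.49e-07). Shprh rose from 44.4 ± 0.585 to 51.9 ± 4.19 CPM (0.23, adjusted p = 0.00368), a call that ended with the length trend removed (0.08) and a value of 0.15 without siHells replicate 2.

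Atrx, which with Daxx keeps repeats and telomeres in heterochromatin, rose from 190 ± 3.57 to 237 ± 4.33 CPM (0.32, adjusted p = 8.01e-07), or by 0.12 with the length trend removed. Smarcad1, which helps restore heterochromatin after replication, rose from 47.9 ± 0.712 to 53.7 ± 2.87 CPM (0.17, adjusted p = 0.0134). Btaf1, which strips the TATA-binding protein from DNA, rose from 92.0 ± 2.69 to 103 ± 3.96 CPM (0.16, adjusted p = 0.00485). Both of the latter calls were lost without siControl replicate 1 (0.14 for Smarcad1 and 0.12 for Btaf1), under library totals (0.09 and 0.09) and with the length trend removed (0.03 and 0.06), and that of Smarcad1 also without siHells replicate 2 (0.11). Smarcal1, an annealing enzyme of stalled forks, stood at 30.1 and 32.1 CPM against 30.1 and 31.2 CPM, with overlap (-0.02, adjusted p = 0.818).

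Other subunits of these complexes and further SNF2 enzymes made up a list of 70 genes, of which 66 were tested. They gave 17 higher (25.8%), 20 lower (30.3%) and 29 that did not pass, with a median log2 fold change of -0.04. These shares were close to those over all genes, of which 29.0% were higher and 29.5% lower. The same shares of all genes are the base for the counts per complex that follow. Dpf3, Actl6b, Bcl11b and Cecr2 were not in the table. NuRD partners gave 4 higher and 5 lower of 13. Mta3 rose by 0.90 on the log2 scale, while the histone chaperone Rbbp7 and Mbd3 fell by 0.43 and 0.51. Of 10 further SWI/SNF subunits 3 rose and 2 fell; the mutually exclusive ncBAF subunits Bicra (0.34) and Bicral (0.40) both rose, and the PBAF subunit Phf10 fell by 0.34. Of 6 further ISWI-list genes 1 rose and 2 fell, with Rsf1 at 0.23, Baz2b at -0.20 and Hmgxb4 at -0.36.

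INO80 partners gave 3 higher and 3 lower of 13, with Ino80d at 0.24, the deubiquitinase Uchl5 at -0.36 and Mcrs1 at -0.30. SRCAP and TIP60 partners gave 5 higher and 2 lower of 15; the scaffold Trrap (0.31), Epc2 (0.41) and Morf4l1 (0.20) rose. The 9 further SNF2-list genes, which include Daxx, gave 1 higher and 6 lower. Rad54l, a recombination motor, fell from 29.6 and 28.9 CPM to 15.6 and 14.9 CPM (-0.94, adjusted p = 1.16e-08). Zranb3, a fork remodeler, fell from 12.5 and 11 CPM to 5.22 and 4.34 CPM (-1.30, adjusted p = 1.93e-07). Ercc6l, which acts on mitotic DNA bridges, fell from 18.1 and 18.1 CPM to 11.5 and 10.9 CPM (-0.69, adjusted p = 2.70e-06). In each of these the siHells libraries were both lower. Some named partners share exon bases with a gene on the opposite strand, and the strand setting of the counting is unknown. The shared part was 15.4% for Rad54l, 15.4% for Morf4l1, 11.3% for Bicral, 9.56% for Phf10 and 7.78% for Zranb3, and smaller for others.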

How the data were processed

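Whole-number read counts per gene symbol for 4 libraries of polyA RNA were analysed as deposited, in 1 table of 17194 symbols with no value of 0. Per the submitters' processing notes, the tools were HISAT2 2.1.0, Trimmomatic 0.38, StringTie 2.1.3b, edgeR and FastQC, with build mm10; what each did was not stated in the sources used here. The labels' protocols name 2 library kits, so strandedness is unknown. Counts were tested with edgeR 4.0.16 in R 4.3.3 (TMM, default low-count filter with a minimum count of 10, robust quasi-likelihood fit on group with 2 residual degrees of freedom, Benjamini-Hochberg adjustment over all 15651 genes tested); the filter removed 1543 genes and none of the 40. The fit was tested on simulated counts with a common dispersion and few genes changed, in balanced directions. That setting cannot check the scaling of these libraries, in which 58.5% of genes passed. Replicates differed by more than sampling noise (mean chi-square per gene 3.45 in siControl and 6.28 in siHells). Exon lengths and overlaps came from GENCODE M21 (15666 symbols matched) and promoters from RefSeq. Alternatives used DESeq2 1.42.0, limma 3.58.1, other scalings, filters and thresholds, trend corrections, a replicate block and leaving out each library. The remodeler genes, pairs and partner list were chosen with earlier results of these data known. Values in every library are given for genes that did not pass, for core motors and for changes of at least 0.4 on the log2 scale; partners are named by the smallest p, up to 3 per complex, at a mean log2 CPM of at least 1.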

Additional observations from a re-analysis of the deposited data

How the results depend on the processing

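Over 16 alternatives, 0 of the 27 remodeler genes that passed changed direction, and Smarca2, Smarcd3, Baz2a, Chd1, Chd3, Chd7, Chd9, Atrx, Ercc6 and Hltf passed under every alternative that tested them. The adjusted p threshold of 0.01 and the test against a 1.2-fold change keep the main log2 fold changes, so neither could change a direction. Several others refit the same 4 libraries and are not independent checks. Tested against a 1.2-fold change, 8 remodeler genes were higher and 2 lower, 3 and 11 partner genes, and 2713 and 2703 of all genes. Leaving out a library gave 15 to 17 higher and 6 to 9 lower remodeler genes, and 3795 to 4442 higher and 3998 to 4442 lower over all genes. Same-numbered libraries did not deviate together (correlation 0.037), and with a replicate block the counts were 18 and 9, with no call of the 40 changed (4501 and 4586 over all genes).

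Genes near 0 changed sign. Under library totals the log2 fold changes were -0.048 for Smarce1, -0.031 for Arid2, -0.063 for Pbrm1, -0.034 for Smarca5, -0.034 for Baz1a, -0.016 for Chd2 and -0.039 for Chd4. With the length trend removed they were -0.024 for Smarce1, -0.041 for Arid1b, -0.069 for Arid2, -0.068 for Pbrm1, -0.026 for Smarca5, -0.016 for Baz1a, -0.091 for Chd2, -0.034 for Chd4 and -0.089 for Chd8, which then passed as lower (adjusted p = 0.0495). Upper-quartile scaling gave -0.0071 for Smarce1 and -0.022 for Pbrm1, removal of the GC trend -0.0027 for Smarce1, and DESeq2 0.00075 for Srcap. Leaving out a library spanned -0.023 to 0.078 for Smarce1, -0.027 to 0.053 for Pbrm1, -0.024 to 0.10 for Baz1a, -0.037 to 0.023 for Srcap, -0.073 to 0.036 for Smarcal1 and -0.11 to 0.0026 for the log2 ratio of Brd9 to Brd7. The cause was not tested. Depth was low for Smarcd3, whose siControl libraries held 14 and 8 counts.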
